A study of Mus musculus with 12 samples.

Results

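The homeostatic microglia genes described here are 10 of the 41388 genes counted in the deposited files, chosen by name. They are the receptors Cx3cr1, P2ry12 and Csf1r, the surface proteins Tmem119, Fcrls and Siglech, the complement subunits C1qa and C1qb, the transcription factor Sall1 and the secreted protein Olfml3. Each symbol matched 1 identifier, and all 10 passed the filter on low counts in each fit. RNA was sequenced from brains of 8 mice aged 20 months, as captured astrocytes and as the flowthrough, the dissociated cells that did not bind the capture beads. The groups were KO astrocytes (mice 132, 60, 62 and 73; n = 4), WT astrocytes (mice 56, 57, 64 and 78; n = 4), KO flowthrough (mice 132 and 60; n = 2) and WT flowthrough (mice 56 and 64; n = 2). All mice, WT included, were on a C57BL/6 background, had the strain label Bmal fl/fl; ALDH1L1-CreERT2, and received 2 mg of tamoxifen a day by gavage for 5 days at 2 months of age. KO mice were labelled Cre+ and WT mice Cre-. The Aldh1l1 promoter drives this Cre in astrocytes, so microglia are not the cells the deletion of Bmal1 (Arntl) is meant for. After collagenase digestion, astrocytes were bound through the surface antigen ACSA-2 to magnetic beads. ACSA-2 is an astrocyte antigen, and capture through it leaves microglia among the unbound cells.

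Total counts were 38.7 to 51.6 M per library (M, a factor of 1e+06). Arntl was not lower in libraries with the KO label, with 401 to 645 counts in KO astrocytes against 239 to 374 in WT astrocytes, and 261 to 284 in KO flowthrough against 217 to 292 in WT flowthrough. The count covers all exons of the gene, so whether it sees the deletion is not known, and KO and WT mean the labels throughout. The astrocyte marker Aldh1l1 averaged 205 ± 68.2 CPM in astrocytes (SD, n = 8) and 64.9 ± 11.9 CPM in flowthrough (SD, n = 4). Its lowest astrocyte library was KO 73, at 79.3 CPM, and the same library also stood apart in the microglia genes, so the main comparisons of the 10 genes and of the gene lists are given with and without it. KO 73 and WT 78 had 2411 and 1133 Xist counts with 3 and 1 Ddx3y counts, the pattern of females. The other astrocyte libraries and all flowthrough libraries had the male pattern.

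Microglia are the resident macrophages of the brain. In the resting adult brain they keep a set of genes switched on, many of which help to mark them off from other macrophages. This set is called homeostatic because many of its genes, but not all, fall when microglia are activated. CX3CR1 is the receptor for fractalkine, which neurons display, P2RY12 senses ADP and steers the processes of the cell, and CSF1R binds CSF1 and IL-34 and is needed for microglia to survive. C1QA and C1QB are, with C1QC, the subunits of C1q, which starts the classical complement pathway, and SALL1 is a zinc finger factor that holds microglial identity. TGF-beta signalling maintains the program, and PU.1, encoded by Spi1, is a factor that macrophages depend on.

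Start site windows of 4 of these genes are printed because they hold a motif of the factors the study and the cell type turn on: GAGGAA, the core letters of PU.1 sites, or CACGTG, the canonical E-box that BMAL1 and CLOCK bind. The windows are RefSeq sequences of GRCm38.p6, from 250 bases before to 50 bases after an annotated start, and 7 of the 10 genes were in the table. Capitals mark the motif. The windows lie at chr3:59262936-59263235 on the minus strand (P2ry12), chr4:136886151-136886450 on the minus strand (C1qb), chr3:87263475-87263774 on the minus strand (Fcrls) and chr7:55767934-55768233 on the plus strand (Siglech).
P2ry12: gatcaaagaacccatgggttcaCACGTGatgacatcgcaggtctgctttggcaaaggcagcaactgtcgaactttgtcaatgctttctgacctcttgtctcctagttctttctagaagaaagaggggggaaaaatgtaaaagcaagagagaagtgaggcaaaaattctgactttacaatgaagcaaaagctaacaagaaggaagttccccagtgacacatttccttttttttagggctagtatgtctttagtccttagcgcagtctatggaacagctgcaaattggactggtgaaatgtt
C1qb: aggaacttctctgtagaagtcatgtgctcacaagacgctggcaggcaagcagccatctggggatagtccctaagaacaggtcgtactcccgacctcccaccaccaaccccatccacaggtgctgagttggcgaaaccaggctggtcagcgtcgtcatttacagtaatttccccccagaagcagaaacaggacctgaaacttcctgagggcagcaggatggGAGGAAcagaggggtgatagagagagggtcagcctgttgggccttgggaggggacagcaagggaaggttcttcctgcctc
Fcrls: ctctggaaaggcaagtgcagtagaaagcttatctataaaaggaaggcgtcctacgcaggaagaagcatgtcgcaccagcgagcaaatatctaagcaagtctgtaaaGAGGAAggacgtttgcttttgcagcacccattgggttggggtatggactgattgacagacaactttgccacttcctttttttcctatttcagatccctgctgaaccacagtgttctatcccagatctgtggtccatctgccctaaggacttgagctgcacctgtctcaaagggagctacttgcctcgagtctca
Siglech: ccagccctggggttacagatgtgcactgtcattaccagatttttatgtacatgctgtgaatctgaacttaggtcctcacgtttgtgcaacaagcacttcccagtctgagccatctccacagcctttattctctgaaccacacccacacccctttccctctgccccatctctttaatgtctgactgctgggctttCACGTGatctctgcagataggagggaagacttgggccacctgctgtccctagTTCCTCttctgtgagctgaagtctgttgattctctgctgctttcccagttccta
Both strands were searched, and the 2 motifs do not overlap in these windows. CACGTG began 228 bases before the start of P2ry12 and 56 bases before that of Siglech. The starts are those of RefSeq and need not match the counted genes. The whole P2ry12 window lies outside the counted span of that gene, given below. GAGGAA began 30 bases before the start of C1qb and 144 bases before that of Fcrls. In Siglech it lay on the opposite strand and is printed as TTCCTC, which begins 4 bases before the start and runs across it. In all, 3 of the 9 windows of these 7 genes held GAGGAA, against 28.3% of the 32851 windows in the table. CACGTG was in 2 of the 9, against 7.15%. Sall1 had 3 of the 9 windows and each other gene had 1. The windows of Cx3cr1, Sall1 and Olfml3 held neither set of letters.

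The deposited coordinates are on GRCm38. P2ry12 (ENSMUSG00000036353; 59216271 to 59262831), Fcrls (ENSMUSG00000015852; 87250758 to 87263738) and Olfml3 (ENSMUSG00000027848; 103733700 to 103738001) lie on chromosome 3. C1qa (ENSMUSG00000036887; 136895917 to 136898803) and C1qb (ENSMUSG00000036905; 136880129 to 136886187) lie on the minus strand of chromosome 4, with C1qc between them. Tmem119 (ENSMUSG00000054675) is on chromosome 5 at 113793729 to 113800516, Siglech (ENSMUSG00000051504) on chromosome 7 at 55768178 to 55778925, Sall1 (ENSMUSG00000031665) on chromosome 8 at 89027248 to 89044162, Cx3cr1 (ENSMUSG00000052336) on chromosome 9 at 119901616 to 120068283, and Csf1r (ENSMUSG00000024621) on chromosome 18. Counts were taken over exons, with 1040 to 5252 exon bases per gene. Csf1r shares 871 exon bases with Hmgxb3 on the opposite strand, and Olfml3 shares 110 with an unnamed gene on the same strand. Whether counting used strand is not stated in the sources used here, so reads in those bases cannot be assigned with certainty.

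In the flowthrough these genes were abundant. Their summed share of all counts was 1.10% and 1.86% in the KO mice and 1.34% and 1.37% in the WT mice. In captured astrocytes they took 0.101%, 0.0544%, 0.0892% and 0.301% in KO 132, 60, 62 and 73, against 0.119%, 0.0591%, 0.102% and 0.0482% in WT 56, 57, 64 and 78. Without KO 73 the KO libraries lay within the WT range. Per length, in the deposited RPKM, C1qb was the highest of the 10 in the flowthrough at 2912 ± 458 RPKM (SD, n = 4 for each flowthrough level), and its lowest library was above the highest of every other gene. P2ry12 followed at 1179 ± 363 RPKM, then Cx3cr1 at 720 ± 224, Fcrls at 466 ± 98.0, Csf1r at 381 ± 90.3, C1qa at 314 ± 31.0 and Olfml3 at 304 ± 83.3 RPKM. From P2ry12 to Olfml3 the range of each gene overlapped that of its neighbour in this order. Within each flowthrough library, though, the order from P2ry12 down to C1qa held. Only C1qa and Olfml3 changed places between libraries, and differences between genes were not tested. Tmem119 (189 ± 31.6 RPKM) and Siglech (155 ± 31.7 RPKM) overlapped in range and lay below all of these, with Tmem119 the higher in each flowthrough library. Sall1, the only transcription factor of the set, was lowest at 14.3 ± 2.5 RPKM and overlapped none. Captured astrocytes kept nearly the same order, with C1qb at 305 ± 220 RPKM, P2ry12 at 70.1 ± 64.0 RPKM and Cx3cr1 at 43.3 ± 32.4 RPKM at the top and Sall1 at 2.84 ± 0.96 RPKM at the bottom (SD, n = 8 each). C1qa and Csf1r changed places in that order, at 34.9 ± 27.6 and 29.5 ± 22.6 RPKM in astrocytes. C1qa was the higher in each astrocyte library but KO 62, and Csf1r was the higher in each flowthrough library. Without KO 73 the astrocyte order was the same except that Siglech (9.11 ± 2.9 RPKM) stood above Tmem119 (8.78 ± 4.0 RPKM; SD, n = 7 each).

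The 2 C1q subunits of the set and C1qc assemble into 1 protein in equal numbers, yet their transcripts were far from equal per length. C1qb RPKM was 8.20 to 11.9 times that of C1qa over the 8 astrocyte libraries and 8.43 to 9.73 times over the 4 flowthrough libraries. C1qb RPKM was 11.7 to 16.6 times that of C1qc in astrocyte libraries and 12.8 to 14.5 times in flowthrough libraries. The ratios of the fractions overlapped, although the level of each subunit differed between fractions by a log2 fold change of -3.19 (C1qb and C1qc) or -3.10 (C1qa).

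**Figure D1:**
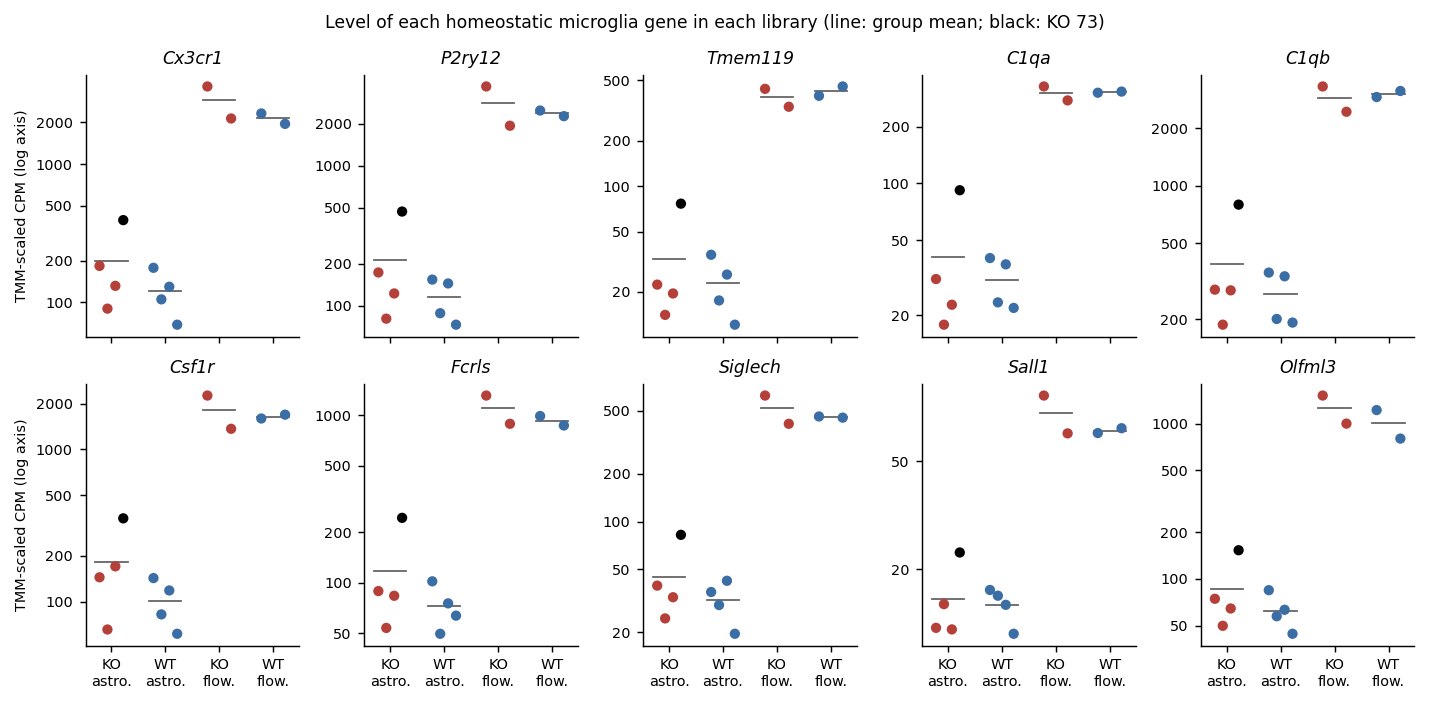
TMM-scaled CPM on a log axis (vertical) of each of the 10 genes in the 12 libraries, by group from left to right KO astrocytes, WT astrocytes, KO flowthrough and WT flowthrough; points are libraries, lines are group means and the black point is astrocyte library KO 73. All 8 astrocyte libraries lie below all 4 flowthrough libraries in each panel, and KO 73 is the highest astrocyte library in each.

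The first comparison asks how far bead capture separated the astrocytes from microglia. All 10 genes were lower in captured astrocytes than in the flowthrough, with no overlap between the 8 astrocyte and 4 flowthrough libraries in any of them. The edgeR test called all 10 lower at adjusted p values of 7.7e-06 to 7.8e-05. Of all 20997 genes tested, 24.4% were called lower and 49.2% were called in either direction, and 17.0% lay below the flowthrough in every astrocyte library. The median log2 fold change of the 10 genes, astrocytes minus flowthrough, was -3.67, and the median of all genes was 0.0040. Without KO 73 the median of the 10 genes was -3.92, and without both female-type libraries it was -3.84. In bulk libraries like these, fewer cells of a type and less RNA per cell cannot be told apart. The p-values measure the pooled spread between libraries within groups. This fit held no mouse term, although 4 of the mice gave both fractions.

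Among the receptors, Cx3cr1 was at 184, 90.3, 132 and 393 CPM in KO astrocytes 132, 60, 62 and 73 and at 178, 105, 129.9 and 69.2 CPM in WT astrocytes 56, 57, 64 and 78. Its flowthrough levels were 3632 and 2133 CPM in KO 132 and 60 and 2318 and 1949.6 CPM in WT 56 and 64. The fractions were far apart, and KO 73 was the only astrocyte library above 184 CPM. The log2 fold change of Cx3cr1 was -4.00 ± 0.36 (SE; astrocytes n = 8, flowthrough n = 4).

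P2ry12 had the largest estimate of the 10 genes, with a log2 fold change of -4.06 ± 0.41. It was at 173, 80.6, 122 and 471 CPM in KO astrocytes and 154, 88.2, 144 and 73.0 CPM in WT astrocytes, in the order of mice above. Its flowthrough levels were 3709 and 1941 CPM in KO and 2494 and 2273 CPM in WT. KO flowthrough 132 was thus above both WT flowthrough libraries and KO flowthrough 60 below both, so the labels straddled each other.

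Csf1r, the growth factor receptor, was at 145, 65.7, 171 and 353 CPM in KO astrocytes and 143, 82.6, 119 and 61.6 CPM in WT astrocytes. Its flowthrough levels were 2259 and 1366 CPM in KO and 1597 and 1692 CPM in WT. Its log2 fold change between fractions was -3.66 ± 0.36, and again KO 73 was the highest and WT 78 the lowest astrocyte library.

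The surface proteins were lower by similar amounts. Tmem119, a membrane protein used to tell microglia from other macrophages, was at 22.3, 14.1, 19.5 and 76.6 CPM in KO astrocytes, 35.2, 17.6, 26.0 and 12.1 CPM in WT astrocytes, 439.99 and 335 CPM in KO flowthrough and 396 and 456 CPM in WT flowthrough. Its log2 fold change was -3.89 ± 0.42. Fcrls, of the Fc receptor-like family, was at 89.3, 53.9, 83.8 and 244 CPM in KO astrocytes, 102, 49.7, 75.5 and 63.8 CPM in WT astrocytes, 1308 and 888 CPM in KO flowthrough and 988 and 867 CPM in WT flowthrough. It averaged 95.3 ± 62.7 CPM in astrocytes and 1013 ± 204 CPM in flowthrough, a log2 fold change of -3.45 ± 0.34. WT 57 and not WT 78 was its lowest astrocyte library. Siglech, a sialic acid-binding lectin, was at 39.4, 24.5, 33.3 and 82.4 CPM in KO astrocytes, 35.9, 29.7, 42.3 and 19.6 CPM in WT astrocytes, 623 and 414 CPM in KO flowthrough and 459.96 and 452 CPM in WT flowthrough. It averaged 38.4 ± 19.3 CPM in astrocytes and 487 ± 93.0 CPM in flowthrough, a log2 fold change of -3.68 ± 0.30. Means are over 8 astrocyte and 4 flowthrough libraries with the SD, and KO 73 was again the highest astrocyte library in all 3 genes.

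The complement subunits had smaller estimates than the receptors, the surface proteins and Olfml3, though not than Sall1, and the difference from the other genes was not tested. C1qb was at 285, 187, 283 and 795 CPM in KO astrocytes, 351, 200.4, 335 and 192 CPM in WT astrocytes, 3300.1 and 2433 CPM in KO flowthrough and 2905 and 3125 CPM in WT flowthrough (log2 fold change -3.19 ± 0.33). C1qa was at 31.1, 17.8, 22.7 and 92.0 CPM in KO astrocytes, 40.1, 23.4, 37.2 and 21.8 CPM in WT astrocytes, 327 and 276 CPM in KO flowthrough and 303 and 307 CPM in WT flowthrough. It averaged 35.8 ± 24.0 CPM in astrocytes and 303 ± 21.1 CPM in flowthrough, a log2 fold change of -3.10 ± 0.37. For C1qb, KO 73 stood at 795 CPM and the next astrocyte library, WT 56, at 351 CPM.

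Olfml3, a secreted olfactomedin-like protein, was at 74.5, 49.9, 64.5 and 153 CPM in KO astrocytes and 84.6, 57.5, 63.2 and 44.3 CPM in WT astrocytes. Its flowthrough levels were 1517 and 1001 CPM in KO and 1223 and 801 CPM in WT. It averaged 73.9 ± 34.4 CPM in astrocytes and 1135 ± 307 CPM in flowthrough, a log2 fold change of -3.95 ± 0.29. A WT library, WT flowthrough 64, was the lowest of the flowthrough, as it was for Cx3cr1 and Fcrls.

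Sall1 stood apart from the other 9 genes. It was at 12.2, 14.9, 12.0 and 23.1 CPM in KO astrocytes and 16.8, 16.0, 14.8 and 11.6 CPM in WT astrocytes. Its flowthrough levels were 87.0 and 63.2 CPM in KO and 63.4 and 66.0 CPM in WT. The fractions did not overlap, but the log2 fold change of -2.20 ± 0.18 was the smallest of the 10, and the difference between Sall1 and the others was not tested.

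Within the KO label the median log2 fold change of the 10 genes was -3.42, and within the WT label -3.93. Without KO 73 the KO median was -3.93. All 10 were called lower in each label, at adjusted p values of 3.4e-04 to 0.0037 in KO, where 14.3% of all genes were called lower, and 1.8e-04 to 9.9e-04 in WT, where 18.5% were. In the 4 mice with both fractions, with the mouse as a block, the median was -4.12 in KO and -3.61 in WT, and all 10 genes were again called lower in each. Of the 20595 genes tested with the block, 8265 were called in either direction within KO and 7418 within WT. These 8 libraries hold neither KO 62 nor KO 73, and without the block they gave -4.08 in KO. The number of all genes called within KO was 8265 with the block and 6070 in the same 8 libraries without it, against 4893 in the 12 libraries. Without KO flowthrough 132 it was 774 and without KO astrocytes 132 it was 3167, and all 10 genes were called lower in each case.

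**Figure D2:**
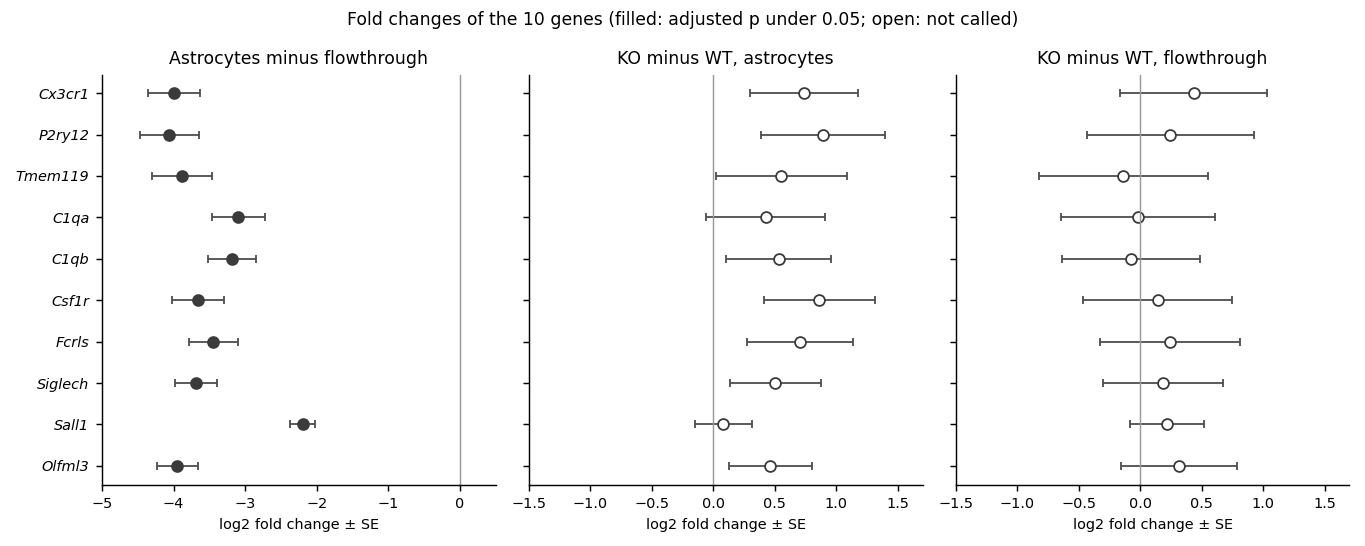
Log2 fold change with its standard error (horizontal) for the 10 genes (vertical), from left to right astrocytes minus flowthrough, KO minus WT astrocytes and KO minus WT flowthrough; filled points passed an edgeR adjusted p of 0.05. All 10 points are filled in the first panel, between -4.06 and -2.20, and all are open in the other panels.

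Carry-over per library was taken as the TMM-scaled CPM of a gene in an astrocyte library in percent of its mean over the 4 flowthrough libraries. It is a ratio of levels, and whether the reads came from microglia held with the beads or from astrocytes was not tested. The median over the 10 genes was 8.23% in KO 132, 4.71% in KO 60, 7.16% in KO 62 and 19.6% in KO 73. It was 8.46% in WT 56, 4.99% in WT 57, 7.16% in WT 64 and 3.96% in WT 78. The 7 libraries other than KO 73 thus lay between 3.96% and 8.46%, with both labels spread over that range. Mitochondrial genes took 12.6% of counts in KO 73, the lowest share of the astrocyte libraries, and 21.3% in WT 57 and 21.4% in WT 78, the highest. They took 12.6% to 21.4% in astrocytes and 4.66% to 12.7% in flowthrough, and their part in the levels was not tested. Against the flowthrough of the same mouse, the median was 6.36% in KO 132, 5.45% in KO 60, 8.92% in WT 56 and 8.30% in WT 64.

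Within a library the genes did not share 1 ratio. In KO 73 they ran from 13.5% for Olfml3 to 33.0% for Sall1, and in WT 78 from 2.76% for Cx3cr1 to 16.6% for Sall1. Sall1 was the highest of the 10 in every astrocyte library, with a median over libraries of 21.3%. C1qb (9.66%) and C1qa (8.98%) followed, then Fcrls (7.86%), Csf1r (7.57%) and Siglech (7.10%). Olfml3 (5.62%), Cx3cr1 (5.22%), Tmem119 (5.15%) and P2ry12 (5.11%) had the lowest medians. Without Sall1, the highest of the other 9 genes was 1.87 to 2.61 times the lowest in each library.

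Sall1 also varied least between libraries. Its highest astrocyte library, KO 73, was 1.99 times its lowest, WT 78. For the other 9 genes the highest library was 3.45 (Olfml3) to 6.46 (P2ry12) times the lowest. KO 73 stood at 1.56 times the median of the other 7 libraries in Sall1, and at 2.42 (Olfml3) to 3.94 (C1qa) times in the others. These ratios share the same libraries and flowthrough means and are given as a description.

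**Figure D3:**
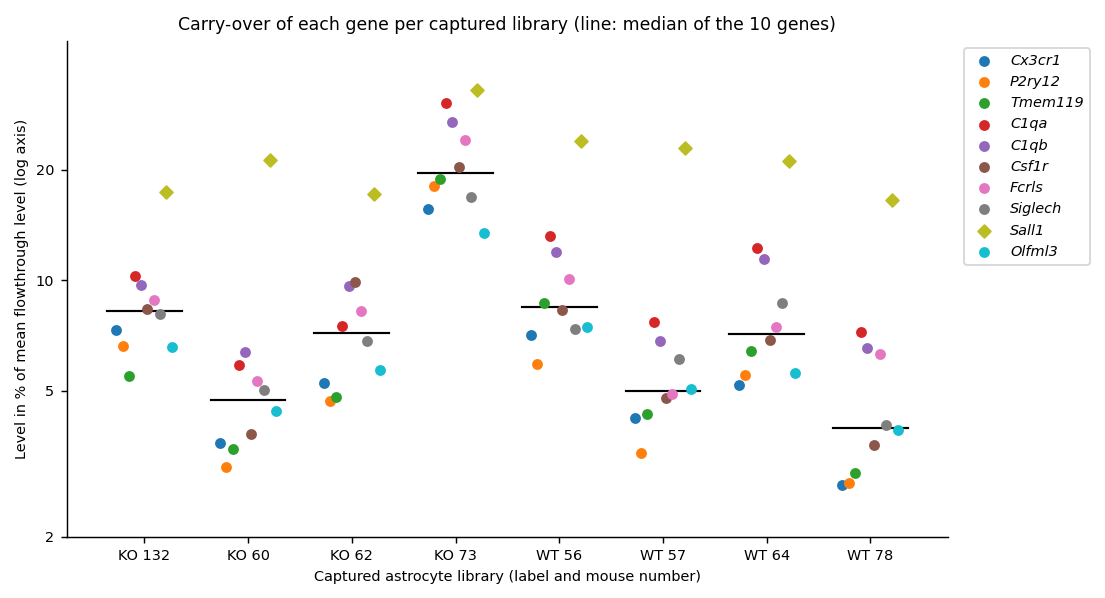
Level of each of the 10 genes in each captured astrocyte library, in percent of its mean over the 4 flowthrough libraries (vertical, log axis); colours are genes, the diamond is Sall1 and the line is the median of the 10. The median of KO 73 is 19.6%, against 3.96% to 8.46% in the other libraries, and the diamond is the highest point in each library.

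KO 73 lay outside the other astrocyte libraries in several cell type lists and inside them in others. On the same measure, the median of 20 other microglia markers, such as Cd68, was 20.7% in KO 73 and 5.16% to 10.1% in the other 7 astrocyte libraries. The median of 18 disease-associated microglia genes was 43.6% in KO 73 and 12.9% to 22.4% in the others. For 12 genes of macrophages at the brain's borders it was 130% in KO 73 and 13.1% to 44.0% in the others, and the defining marker Mrc1 reached 51.8 CPM in KO 73. For 15 oligodendrocyte genes it was 412% in KO 73 and 105% to 203% in the others, and for 10 ependymal and choroid plexus genes 45.3% in KO 73 and 6.97% to 23.2% in the others. For 18 astrocyte genes it was 241% in KO 73, below the 345% to 445% of the others, and for 14 neuron genes 162% in KO 73, below the 228% to 373% of the others. For 9 oligodendrocyte precursor genes it was 134% in KO 73, below the 148% to 214% of the others. It lay within the others for 14 endothelial genes (62.2% in KO 73 and 23.4% to 74.1% in the others), 8 pericyte genes (55.9% in KO 73 and 22.3% to 67.0% in the others) and 12 ligands and complement genes (89.7% in KO 73 and 70.4% to 113% in the others). The part of these other cell types in the levels of KO 73 was not tested. Genes of blood cells were low in the captured fraction: the median of 12 monocyte and granulocyte genes was 4.32% in KO 73 and 0.135% to 3.33% in the others, and that of 12 lymphocyte genes 12.3% in KO 73 and 0.934% to 4.08% in the others.

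**Figure D4:**
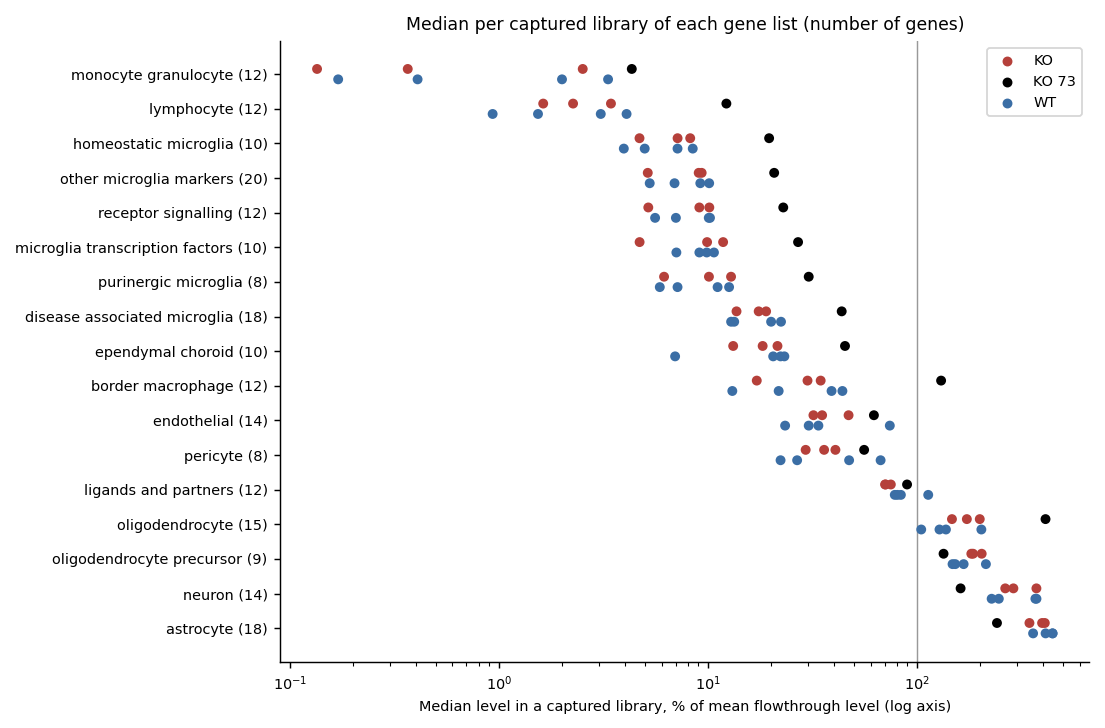
Median level of each gene list in each captured astrocyte library, in percent of the mean flowthrough level (horizontal, log axis), for 17 lists (vertical, number of genes in brackets); red points are KO, blue WT and black KO 73, and the line marks equal levels. The homeostatic microglia list lies between 3.96% and 19.6%, the astrocyte list at 241% or more and the neuron list at 162% or more.

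Whether the label changed the RNA of these 10 genes found with the astrocytes was asked by comparing KO with WT astrocytes. None of the 10 genes was called by edgeR (8 libraries, n = 4 each), with adjusted p values of 0.972 to 0.996, and none had an unadjusted p under 0.05. Of all 18527 genes, 0.232% were called (43 genes), and with DESeq2 184. The 10 log2 fold changes, KO minus WT, were all above 0, with a median of 0.54 against 0.0044 for all genes, but the groups overlapped in each gene. Across all genes, 1.76% lay above WT in every KO library. DESeq2 also called none of the 10, and 1, Csf1r, had an unadjusted p under 0.05.

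The largest estimate was that of P2ry12, which averaged 212 ± 177 CPM in KO astrocytes and 115 ± 40.0 CPM in WT astrocytes, a log2 fold change of 0.89 ± 0.50. Csf1r, at 183 ± 121 CPM in KO and 101 ± 36.3 CPM in WT astrocytes, had 0.86 ± 0.45 and the smallest unadjusted p of the 10, 0.0860. Cx3cr1 averaged 199.8 ± 135 CPM in KO and 121 ± 45.7 CPM in WT astrocytes (0.74 ± 0.44). In all 3 genes the SD was larger in KO than in WT, with KO 73 far above the other KO libraries. Sall1 was nearest to 0, at 15.6 ± 5.2 CPM in KO and 14.8 ± 2.3 CPM in WT astrocytes (0.08 ± 0.23). The other 6 genes lay between 0.42 (C1qa) and 0.70 (Fcrls).

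KO 73 was the highest astrocyte library in all 10 genes. Without it, KO astrocytes averaged 135 ± 46.8 CPM of Cx3cr1 and 125 ± 46.1 CPM of P2ry12 (SD, n = 3), and the median log2 fold change of the 10 genes was 0.02, with 6 above 0. Without both female-type libraries, KO 73 and WT 78, the median was -0.13 and 2 genes, Csf1r and Fcrls, stayed above 0. None of the 10 was called in either case. WT 78 was the lowest astrocyte library in 7 of the 10 genes, so these 2 libraries, 1 of each label, stood at the opposite ends.

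**Figure D5:**
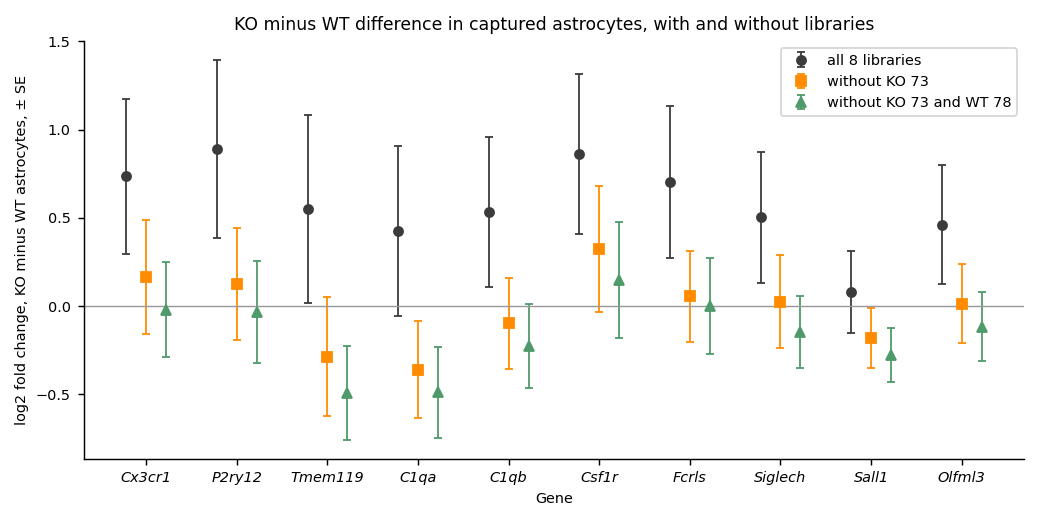
Log2 fold change, KO minus WT captured astrocytes, with its standard error (vertical) for each of the 10 genes (horizontal), with all 8 libraries, without KO 73, and without KO 73 and WT 78. The median of the 10 genes is 0.54 with all libraries, 0.02 without KO 73 and -0.13 without both.

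In flowthrough, where RNA of the 10 genes was abundant, none of them passed the test between KO and WT either. None of the 10 genes was called (n = 2 each, spread pooled over 12 libraries; adjusted p = 1 for each), none had an unadjusted p under 0.05 by edgeR or DESeq2, and 0.00476% of all 20997 genes were called (1 gene; 23 with DESeq2). The log2 fold changes ran from -0.14 (Tmem119) to 0.43 (Cx3cr1), with a median of 0.20 and standard errors of 0.30 to 0.69. KO 132 was the highest of the 4 flowthrough libraries in 9 of the 10 genes and KO 60 the lowest in 7, so in most genes the 2 KO mice lay on either side of the WT mice. Without KO flowthrough 132 the median of the 10 genes was -0.14. C1qa averaged 301 ± 36.3 CPM in KO flowthrough and 305 ± 3.0 CPM in WT flowthrough.

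The difference of the label effects between fractions was tested with an interaction term. No gene of the 10 was called (adjusted p of 0.935 to 0.985), and 0.0% of all genes were, while 828 had an unadjusted p under 0.05 by edgeR and DESeq2 called 8. The interaction estimates of the 10 ran from -0.14 to 0.71 with a median of 0.44. In the 4 mice with both fractions the median was -0.55 with the mouse as a block and -0.53 without it, so the sign turned when KO 62, KO 73, WT 57 and WT 78 were left out. Without KO 73 alone it was -0.18. Adjusted p values with the block were 0.592 to 0.774.

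The ligands of these receptors and the other complement genes had no common direction between fractions. Cx3cl1, the ligand of Cx3cr1, averaged 23.5 ± 3.5 CPM in astrocytes and 18.1 ± 4.0 CPM in flowthrough (log2 fold change 0.38 ± 0.16, adjusted p = 0.0782). Csf1, at 11.3 ± 4.4 CPM in astrocytes and 10.9 ± 0.73 CPM in flowthrough, and Il34, at 17.7 ± 3.1 CPM in astrocytes and 16.6 ± 2.8 CPM in flowthrough, both ligands of Csf1r, were not called either (adjusted p = 0.865 and 0.634). C1qc, the third C1q subunit, was lower like the other C1q genes, at 42.1 ± 33.0 CPM in astrocytes and 374 ± 65.9 CPM in flowthrough (-3.19 ± 0.41, adjusted p = 1.2e-04). Of 12 ligands and complement genes, 3 were higher and 5 lower in astrocytes, where 24.8% of all genes were higher and 24.4% lower. Without KO 73 these counts were again 3 and 5.

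Among the further complement genes, C4b, a component cleaved after C1q binds, was higher in astrocytes (0.48 ± 0.17, adjusted p = 0.0353), and so was C2, its partner (1.23 ± 0.30, adjusted p = 0.0052). C3, the central component, was lower (-1.71 ± 0.64, adjusted p = 0.0438), as was the C1q-associated protease C1ra (-0.97 ± 0.33, adjusted p = 0.0309). C1s1, the other protease, was not called (-0.48 ± 0.39, adjusted p = 0.332). The TGF-beta ligands split: Tgfb1 (-3.00 ± 0.40, adjusted p = 1.5e-04) and Tgfb2 (-0.57 ± 0.13, adjusted p = 0.0045) were lower and Tgfb3 was higher (0.64 ± 0.14, adjusted p = 0.0027). Tgfb1 rests on few counts, at 0.16 ± 0.09 CPM in astrocytes (SD, n = 8) and 1.30 ± 0.15 CPM in flowthrough (SD, n = 4). None of the tested genes of this list passed the test between KO and WT astrocytes. C4b had the smallest p of this list there, at 148 ± 34.9 CPM in KO and 89.0 ± 13.6 CPM in WT astrocytes (log2 fold change 0.74 ± 0.19, adjusted p = 0.310; 0.63 ± 0.18 without KO 73, adjusted p = 0.383), and Tgfb1 was left out by the filter on low counts.

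Genes that signal in or beside these receptors were mostly lower too. Of 12 signalling genes, 11 were lower in astrocytes, against 24.4% of all genes, with the kinase Syk at -3.07 ± 0.25, the lipid phosphatase Inpp5d at -3.71 ± 0.31 and the complement receptor subunit Itgam at -3.47 ± 0.29 (adjusted p of 1.2e-05 to 1.4e-05). The exception was Smad3, a mediator of TGF-beta signals (-0.24 ± 0.16, adjusted p = 0.242). All 8 purinergic genes were lower, and the adenosine receptor Adora3 (-4.22 ± 0.42) and the P2Y receptors P2ry13 (-4.18 ± 0.43) and P2ry6 (-3.75 ± 0.39) had the smallest p. All 20 other microglia markers were lower, with a median of -3.41, as with Rgs10 (-2.29 ± 0.14), Golm1 (-3.09 ± 0.22) and the fructose transporter Slc2a5 (-4.38 ± 0.37).

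All 10 transcription factors of microglia were lower too, against the same 24.4% of all genes, but by unequal amounts. The log2 fold change was -4.04 ± 0.29 for Ikzf1, -3.50 ± 0.36 for Irf8 and -3.70 ± 0.41 for Spi1. It was -1.05 ± 0.10 for Mef2a, -1.10 ± 0.14 for Mef2c and -0.81 ± 0.12 for Sall3, a relative of Sall1. The adjusted p values of these 6 ran from 6.7e-06 to 3.6e-04. In the opposite direction, all 18 astrocyte genes and all 14 neuron genes were higher in astrocytes, where 24.8% of all genes were, with medians of 1.97 and 1.58. The counts of genes called in these 6 lists were the same without KO 73. Fgfr3 (2.25 ± 0.20), Gjb6 (1.89 ± 0.17) and Atp1b2 (1.98 ± 0.19) had the smallest p of the astrocyte genes. Between KO and WT astrocytes no gene of these lists was called. The medians of the signalling, purinergic and other marker lists were 0.56, 0.67 and 0.54 with all libraries, and -0.06, -0.03 and -0.05 without KO 73.

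Across the 8 astrocyte libraries the 10 genes varied together, Sall1 less closely than the others. The Pearson correlation of a gene's deviations from its group means with those of the mean of the 10 was 0.951 (Csf1r) to 0.993 (Tmem119) for 9 of them and 0.782 for Sall1. Each gene is part of that mean, which raises these values. Without KO 73 it was 0.853 (Fcrls) to 0.980 (Tmem119) for the 9 and 0.301 for Sall1. Over the 45 pairs the median correlation was 0.947 and the lowest 0.616. Without KO 73 the median was 0.881 and the lowest -0.072. Of the other genes with a mean log2 CPM of at least 3, those among the 10 most alike included Mterf3 (0.994), C3ar1, Rasgrp3, Cd53 and Arvcf (0.993 each), Gpr183 and Ccnl1 (0.992 each), Cd68 (0.991) and Zfp110 (0.990). Of 9366 such genes, 580 had a correlation of at least 0.9, and 395 without KO 73. These points share libraries, depth and 1 extreme library, and of the 9 genes named here 1, Rasgrp3, was also among the 10 most alike without KO 73.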

How the data were processed

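RNA counts of 12 mouse brain libraries from 8 mice were analysed. Per the file headers, each deposited file gives a whole-number read count, CPM and RPKM for 41388 genes, of which 40254 matched a symbol. The deposited CPM equals the count per 1e+06 total counts, and the deposited RPKM is that CPM per kilobase of exons. Only the RPKM is used to compare genes, and it carries no TMM factor. Reads were handled with STAR 2.5.1a, featureCounts 1.4.6-p5, Subread and bcl2fastq on GRCm38, per the submitters' processing notes. The strand setting and the treatment of reads mapping to several genes were not given in the sources used here. No 2 libraries held identical values.

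The count test was edgeR 4.0.16 under R 4.3.3 (quasi-likelihood, TMM, filterByExpr by group, two-sided), adjusted by Benjamini-Hochberg over all genes and called at an adjusted p under 0.05. KO and WT astrocytes were compared in the 8 astrocyte libraries (6 residual degrees of freedom). All other comparisons used 12 libraries and 4 group means (8 residual degrees of freedom), so 2 flowthrough libraries per label borrow the spread of the other groups. CPM in the text is scaled by TMM over the 12 libraries. Carry-over, list medians and correlations of log2 CPM (prior count 2) are descriptions. A count of 3 in a library is 0.0582 to 0.0775 CPM, and every gene described as a member was far above it. The code was tested on simulated data.

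The pairing of both fractions in 4 animals rests on the mouse number. Correlations of deviations from the group means were -0.0066 (mouse 132), 0.352 (60), 0.155 (56) and 0.251 (64). With 2 flowthrough libraries per label, the deviations of these 2 mirror each other, so the values are not separate checks of the pairing. Alternative settings included scaling by RLE or library size, other filters on low counts, DESeq2 1.42.0, TMM factors without the listed genes, the mouse as a block, and leaving out libraries. Further checks, made after seeing the data, were correlations and gene lists without KO 73 and carry-over without Sall1. Of 215 list entries, 214 matched. Some genes, Itgam among them, stand in both the signalling list and the list of other microglia markers and are counted in each. Named genes are the 10 members, the ligand list, up to 3 genes of each other list with the smallest p, 9 of the 10 genes most like the members (the other is not reported here), and Arntl, Aldh1l1, Xist and Ddx3y as checks; Spi1, Mef2c, Sall3, Smad3, Mrc1, Axl and Cd163 were added after their values were seen. The members and lists were chosen with earlier results of these data known.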

Additional observations from a re-analysis of the deposited data

Results flagged for a closer look

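The level of Tmem119 in KO astrocytes 73 was 76.6 CPM, and the gap to the next of the 4 KO astrocyte libraries passed Dixon's 95% limit for a group of 4. C1qb in the same library, at 795 CPM, passed it as well. Over the 10 genes and the carry-over medians, 22 groups of 4 were tested and 2 passed, where chance gives about 1 in 20 for independent groups. These groups were not independent, because they share libraries and the medians come from the same 10 genes. The count therefore cannot be set against chance. The other 8 genes were also highest in KO 73 without passing the limit. The same library had the lowest Aldh1l1 level of the astrocyte libraries, 79.3 CPM, and the part of its other cell types was not tested.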

How the results depend on the processing

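The lower level of all 10 genes in astrocytes held under every alternative run, with all 10 called, log2 fold changes of -4.44 to -2.07 and adjusted p values up to 5.2e-04. The mouse block changed no call of these genes. Scaling by library size moved the median of all genes between fractions to -0.14 and that of the 10 genes to -3.78. Within KO, genes called numbered 8265 with the block, 6070 in the same libraries without it and 774 to 6812 leaving out a library in turn, against 4893, and the median of the 10 genes was -4.12 with the block and -4.08 in the same libraries without it. Within WT, leaving out a library gave 3357 to 8887 genes called against 7950, the lowest without WT flowthrough 64. Leaving out a flowthrough library assumes that the remaining one varies like the other groups.

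Between KO and WT astrocytes no alternative called any of the 10 genes. Genes called were 43, with 184 by DESeq2, 28 by library size scaling (75% higher, against 62.8%) and 12 to 37 leaving out a library in turn (37 without KO 73, and 22 or fewer without each of the other 7, lowest without KO 132). Leave-one-out medians of the 10 genes ran from 0.02 to 0.78, and the median was -0.13 without KO 73 and WT 78. Without both, estimates were Cx3cr1 -0.022, P2ry12 -0.036, Tmem119 -0.49, C1qa -0.49, C1qb -0.23, Siglech -0.15, Sall1 -0.28 and Olfml3 -0.12. Leaving out a library in turn gave Tmem119 -0.29 to 0.85, C1qa -0.36 to 0.67, C1qb -0.10 to 0.76 and Sall1 -0.18 to 0.19, each lowest without KO 73. In flowthrough, genes called were 1, with 23 by DESeq2, 0 in the paired mice and 0 to 5 leaving out a library, and the median of the 10 genes ran from -0.14, without KO 132, to 0.46. For the interaction, DESeq2 called 8 genes. Its median of 0.44 was -0.55 with the block, -0.53 in the paired mice without it, -0.35 without KO 73 and WT 78, and -0.18, without KO 73, to 0.74 leaving out a library. The cause of these changes was not tested. Carry-over medians moved by less than the spread between libraries under each alternative. With 2 flowthrough mice per label, the standard errors of 0.30 to 0.69 limit what can be seen there.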

Other observations

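Other immune genes also differed between the fractions. Of 18 disease-associated microglia genes, 15 were lower in captured astrocytes than in flowthrough and 1, the receptor kinase gene Axl, was higher by edgeR (0.77 ± 0.14, adjusted p = 8.1e-04), with a median log2 fold change of -2.37. Of all genes, 24.4% were lower and 24.8% higher. The cathepsins Ctsd (-2.63 ± 0.24, adjusted p = 2.0e-05) and Ctsz (-2.36 ± 0.21, adjusted p = 1.6e-05) and the chemokine Ccl6 (-3.54 ± 0.46, adjusted p = 1.4e-04) had the smallest p. Of 12 border macrophage genes, 6 were lower, and Stab1 (-2.42 ± 0.39, adjusted p = 4.9e-04) had the smallest p. The median of that list was -1.26, and Cd163, a scavenger receptor of these cells, was not called (-0.70 ± 0.34, adjusted p = 0.104). Without KO 73 all 12 border macrophage genes were lower, with a median of -1.78, and Cd163 was at -0.98 ± 0.24 (adjusted p = 0.0060), where 27.9% of all genes were lower. All 12 monocyte and granulocyte genes were lower, with a median of -5.88, among them Ly6c2 (-4.51 ± 0.31, adjusted p = 5.8e-06) and Plac8 (-5.23 ± 0.40, adjusted p = 9.7e-06). Of 12 lymphocyte genes 11 were lower, with a median of -4.97. Without KO 73, 16 of the 18 disease-associated genes, all 12 monocyte and granulocyte genes and 11 of the 12 lymphocyte genes were lower. Between KO and WT astrocytes none of these genes was called by edgeR. The medians there were 0.48 for the disease-associated and 0.80 for the border macrophage genes with all libraries, and -0.09 and -0.12 without KO 73.

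Genes of vessel wall cells were lower by less. All 14 endothelial genes were lower in captured astrocytes, with a median of -1.14, and 6 of 8 pericyte genes were, with a median of -1.31. Both counts were the same without KO 73. Of 15 oligodendrocyte genes, 5 were higher and 1 was lower, where 24.8% of all genes were higher and 24.4% lower. Without KO 73, 8 were higher and 2 lower, where 27.2% and 27.9% of all genes were. Cnp, a myelin enzyme, was higher (1.25 ± 0.24, adjusted p = 0.0012), and Enpp2, which choroid plexus also makes, was lower (-2.66 ± 0.35, adjusted p = 1.3e-04).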
